A study of Mus musculus with 6 samples.

Results

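The 10 genes described here encode the cell-surface machinery by which a macrophage senses extracellular ATP, ADP, UDP, UDP-sugars and adenosine, together with the surface enzyme that hydrolyses ATP. They were taken by symbol from 16266 genes: the ATP-gated channels P2rx4 and P2rx7, the G protein-coupled nucleotide receptors P2ry2, P2ry6, P2ry12, P2ry13 and P2ry14, the ectonucleotidase Entpd1 (CD39), and the adenosine receptors Adora2a and Adora2b. All 10 were present in the table and all 10 passed the low-count filter. Macrophages differentiated from mouse bone marrow were compared between 3 Capns1 knockout (KO) and 3 wild-type (WT) libraries. Every library came from cells given lipopolysaccharide (LPS, a bacterial cell wall component) for 24 h, and libraries without LPS were not analysed here. The title of the study describes a deletion restricted to myeloid cells. The sources used here do not give the driver of that deletion, the strain, age or sex of the mice, or whether replicates were separate animals. The p-values thus cover the spread between libraries alone, and that spread may be technical. In bulk RNA, fewer cells of a type and less RNA per cell cannot be told apart.

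ATP leaves stressed or dying cells and acts on macrophages as a danger signal. P2X7 opens at high ATP and lets potassium out of the cell, a trigger of the NLRP3 inflammasome, whereas P2X4 responds to lower ATP. The P2Y receptors signal through G proteins, with P2Y2 answering ATP and UTP, P2Y6 answering UDP, P2Y12 and P2Y13 answering ADP, and P2Y14 answering UDP-glucose and UDP. CD39 converts ATP and ADP to AMP, CD73 converts AMP to adenosine, and adenosine then acts through the Adora2a and Adora2b receptors, which raise cyclic AMP and restrain inflammatory output in macrophages.

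The targeted gene was examined first, because the genotype labels of the 3 KO samples carry 3 different Capns numbers. Capns1 had 335, 370 and 298 counts in the KO libraries, against 17055, 18934 and 21331 counts in the WT libraries, so the loss was present in each KO library. Libraries held 32631163 to 40913819 counts. KO replicate 2 and WT replicate 3 stood apart within their groups on component 2 of a principal component analysis (15.9% of variance). KO replicate 2 lay at -25.5 against 12.6 and 10.4 for the other KO libraries, and WT replicate 3 at 23.2 against -8.21 and -12.4 for the other WT libraries. Over all 12219 tested genes, edgeR called 8.44% higher and 6.21% lower in KO at adjusted p under 0.05. These shares are the background for the counts of called markers below. All 9 macrophage markers were detected, and 1 of 9 was called lower and none higher. Of the 9, 8 had log2 fold changes (KO minus WT) below 0, with a median of -0.19 against -0.01 over all tested genes. Their summed levels were 33932 to 38974 CPM (counts scaled to a common library total) in KO and 35677 to 42952 CPM in WT libraries. Lyz2 made up most of these sums, with means of 24897 CPM in KO and 28413 CPM in WT. Markers of fibroblasts and marrow stroma summed to 342 to 416 CPM in KO and 160 to 195 CPM in WT libraries, and 5 of their 9 genes rose in KO. Dendritic cell markers (3.55 to 4.81 CPM in KO, 3.91 to 5.17 CPM in WT), lymphocyte markers (6.91 to 8.58 CPM in KO, 7.18 to 11.4 CPM in WT) and mast cell and basophil markers (1.72 to 3.72 CPM in KO, 1.64 to 2.20 CPM in WT) were low, with Cd3e, Cd8a and Fcer1a not analysed here. The microglial markers Sall1 and Siglech, of interest because P2ry12 also marks microglia, were under 1 CPM in both groups (0.0460 and 0.00946 CPM in KO, 0.00841 and 0.155 CPM in WT), while all 6 microglial markers summed to 249.3 to 274 CPM in KO and 293 to 316 CPM in WT libraries, with none of the 4 tested called. Platelet and megakaryocyte markers, cells that also carry P2Y12, summed to 387 to 429 CPM in KO and 304 to 405 CPM in WT libraries, with 1 of 6 called higher and 1 called lower. Pf4, the marker called higher, made up most of these sums, with means of 299 CPM in KO and 208 CPM in WT. Of the 6 platelet and megakaryocyte markers, 5 had log2 fold changes below 0 (median -0.20). Neutrophil and precursor markers summed to 962 to 1270 CPM in KO and 973 to 1309 CPM in WT libraries (2 of 7 called higher and 2 lower), and endothelial markers to 31.8 to 46.9 CPM in KO and 36.3 to 51.0 CPM in WT libraries (1 of 4 tested called lower). The part of macrophage content and of these other cells in the results below was not tested.

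Promoter windows are shown for the 5 genes that passed the test in KO against WT, since these are the sequences that carry their start sites. They run from 250 bases before to 50 bases after the start site, on GRCm38.p6, as given by RefSeq, and 8 of the 10 genes had at least 1 such window. RefSeq gives 2 windows for P2rx7 and 4 for P2ry14, and the one at the outermost start site is printed. Capitals mark matches, on either strand, to a PU.1 core (GAGGAA), an AP-1 site (TGANTCA), a GC box (GGGCGG), a hypoxia response core (ACGTG), a cyclic AMP response half-site (TGACG), an interferon response core or an NF-kB site.
P2rx7 (chr5:122643677-122643976, forward strand): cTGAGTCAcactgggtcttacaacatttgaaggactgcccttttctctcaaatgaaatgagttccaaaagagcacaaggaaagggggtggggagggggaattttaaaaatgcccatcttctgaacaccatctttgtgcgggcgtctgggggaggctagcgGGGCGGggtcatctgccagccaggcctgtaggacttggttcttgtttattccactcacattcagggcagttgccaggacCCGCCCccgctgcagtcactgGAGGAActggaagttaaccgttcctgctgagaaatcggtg
P2rx4 (chr5:122707294-122707593, forward strand): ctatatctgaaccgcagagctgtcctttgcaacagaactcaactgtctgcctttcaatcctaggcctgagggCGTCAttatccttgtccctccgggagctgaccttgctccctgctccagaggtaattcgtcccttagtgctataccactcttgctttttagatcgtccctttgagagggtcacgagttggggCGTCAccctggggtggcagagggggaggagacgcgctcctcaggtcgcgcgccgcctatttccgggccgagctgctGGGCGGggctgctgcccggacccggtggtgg
P2ry14 (chr3:59153443-59153742, reverse strand): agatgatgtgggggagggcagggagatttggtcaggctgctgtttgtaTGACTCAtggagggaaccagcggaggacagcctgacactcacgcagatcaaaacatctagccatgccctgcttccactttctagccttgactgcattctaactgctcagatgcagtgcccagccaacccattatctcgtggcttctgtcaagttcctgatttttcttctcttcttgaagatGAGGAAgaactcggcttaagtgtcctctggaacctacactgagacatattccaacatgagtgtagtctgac
P2ry13 (chr3:59210833-59211132, reverse strand): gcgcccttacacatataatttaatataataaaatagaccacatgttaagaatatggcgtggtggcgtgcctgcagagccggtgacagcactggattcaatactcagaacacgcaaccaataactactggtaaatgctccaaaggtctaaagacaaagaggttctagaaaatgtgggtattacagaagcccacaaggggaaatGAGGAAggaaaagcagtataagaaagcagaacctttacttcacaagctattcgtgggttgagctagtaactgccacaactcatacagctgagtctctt
Adora2b (chr11:62248734-62249033, forward strand): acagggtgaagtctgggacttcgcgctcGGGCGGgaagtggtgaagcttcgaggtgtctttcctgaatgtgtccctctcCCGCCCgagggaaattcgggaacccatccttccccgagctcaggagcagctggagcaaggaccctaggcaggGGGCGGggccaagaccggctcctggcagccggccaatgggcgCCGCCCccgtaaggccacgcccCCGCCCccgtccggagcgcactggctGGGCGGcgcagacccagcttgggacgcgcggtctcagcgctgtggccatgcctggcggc
The printed P2rx7 window held an AP-1 match, a PU.1 core match and 2 GC boxes, whereas its window 2 held 1 PU.1 core match and none of the others. The printed P2ry14 window held an AP-1 match and a PU.1 core match. Of its other windows, each held 1 PU.1 core match, and AP-1 was matched in window 2 but not in windows 3 and 4. P2ry13 held 1 PU.1 core match. P2rx4 held 1 GC box and 2 cyclic AMP response half-sites, and Adora2b held 6 GC boxes. Among all 32851 promoter windows of the same RefSeq set, 28.3% held a PU.1 core, 7.81% an AP-1 site and 35.7% a GC box. A hypoxia response core was in 19.6%, a cyclic AMP half-site in 20.8%, an interferon response core in 3.44% and an NF-kB site in 4.51%. The 5 printed windows held none of the last 2 and no hypoxia response core. With 70.0% G and C the Adora2b window was the richest of the 5, against 42.3% for P2ry13, 49.3% for P2ry14, 53.3% for P2rx7 and 60.3% for P2rx4, with a median of 52.7% over all windows.

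The 10 genes differed widely in level. On the FPKM scale (fragments scaled by gene length and library total, so that genes can be compared), P2rx4 averaged 185 ± 15.9 in KO and 239 ± 8.21 in WT libraries, and P2ry6 averaged 120 ± 10.6 in KO and 139 ± 15.1 in WT (SD, n = 3 each). P2rx4 ranked 347th and P2ry6 529th of all genes by mean FPKM. Together they made up 86.7 to 87.5% of the summed FPKM of the 7 nucleotide receptors in KO and 86.4 to 87.4% in WT libraries. P2rx7 came next in both groups, and no library of these 3 genes overlapped with its neighbour in the order. Below them, P2ry2, P2ry14, Adora2a, P2ry13 and Entpd1 stood in that order in KO, where P2ry2 overlapped with P2ry14, Adora2a with P2ry13, and P2ry13 with Entpd1. In WT the order was P2ry14, P2ry13, Entpd1, P2ry2 and Adora2a, with overlaps between each neighbouring pair except P2ry2 and Adora2a. P2ry12 and Adora2b were the lowest in both groups, and neither overlapped with its neighbours.

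**Figure D1:**
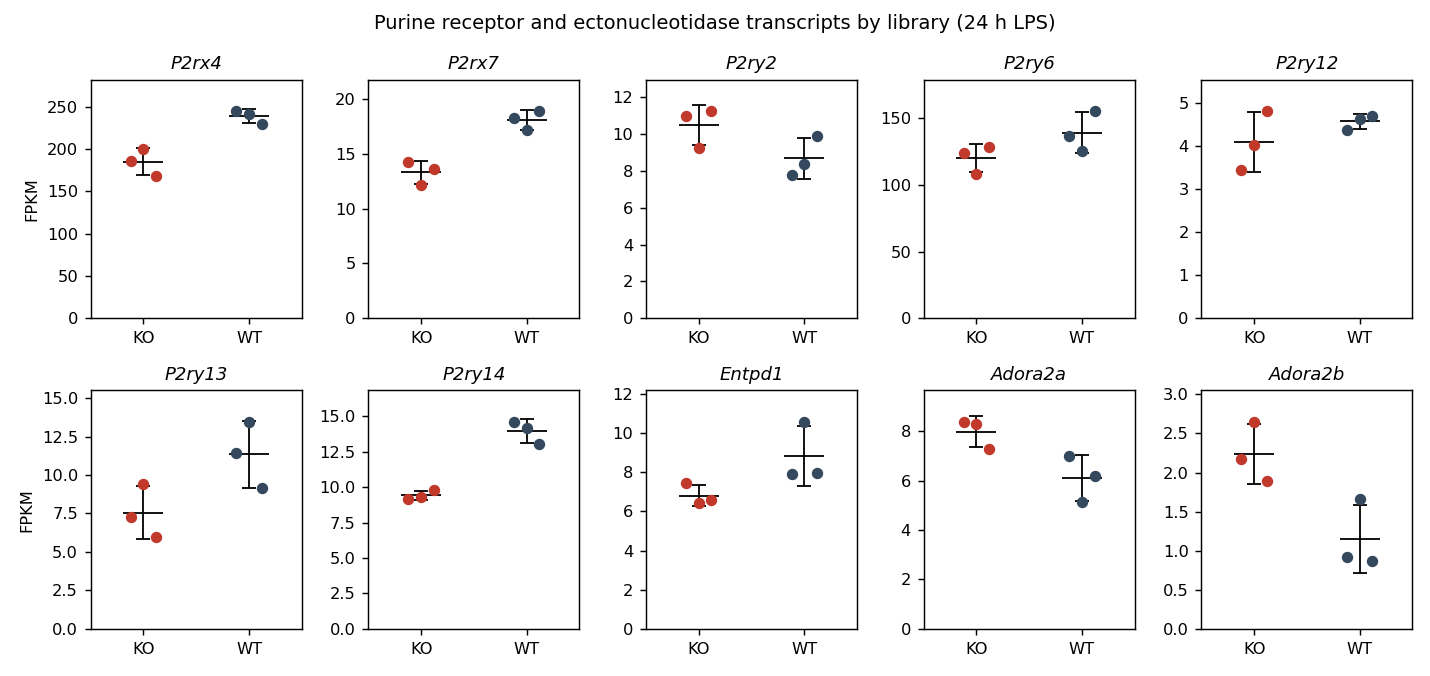
FPKM of each of the 10 genes (vertical axes, each starting at 0) in the 3 KO and 3 WT libraries, one point per library, with horizontal bars at the mean and whiskers of 1 SD. P2rx4, P2rx7, P2ry14 and Entpd1 sit lower in every KO library than in any WT library, and Adora2a and Adora2b sit higher.

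Of the 10 genes, 4 fell in KO (P2rx4, P2rx7, P2ry13 and P2ry14), 1 rose (Adora2b) and 5 were not called in edgeR, where a call is an adjusted p under 0.05. Across all 12219 genes tested, 6.21% fell and 8.44% rose. The 10 genes were chosen with earlier results of these data known, so these shares do not test the set. Without regard to the test, KO and WT libraries did not overlap in CPM for 6 of the 10 (33.6% of tested genes), with 4 lower in KO against 15.5% of tested genes and 2 higher against 18.2%. The median log2 fold change, KO minus WT, was -0.31 for the 10 and -0.01 for all tested genes. These counts rest partly on calls close to the threshold: leaving out KO replicate 1, KO replicate 3, WT replicate 1 or WT replicate 2 gave 2 lower (backgrounds of 2.88, 3.23, 3.47 and 3.48%), without KO replicate 2 there were 4 (5.99%) and without WT replicate 3 there were 5 (5.37%). The 1 call higher was kept without WT replicate 2 alone (background 6.37%). It was lost without KO replicate 1, 2 or 3 (6.1, 8.07 and 5.99%) and without WT replicate 1 or 3 (5.63 and 8.37%). Without both libraries that stood apart, 5 were lower and 1 higher (12.3 and 13.7%), but the 1 higher was P2ry2 and Adora2b was not called. DESeq2 called 5 lower and 1 higher, Adora2b (7.87 and 10.5%). The 2 genes of smallest p, P2ry14 and P2rx7, were called under each of 19 alternatives.

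**Figure D2:**
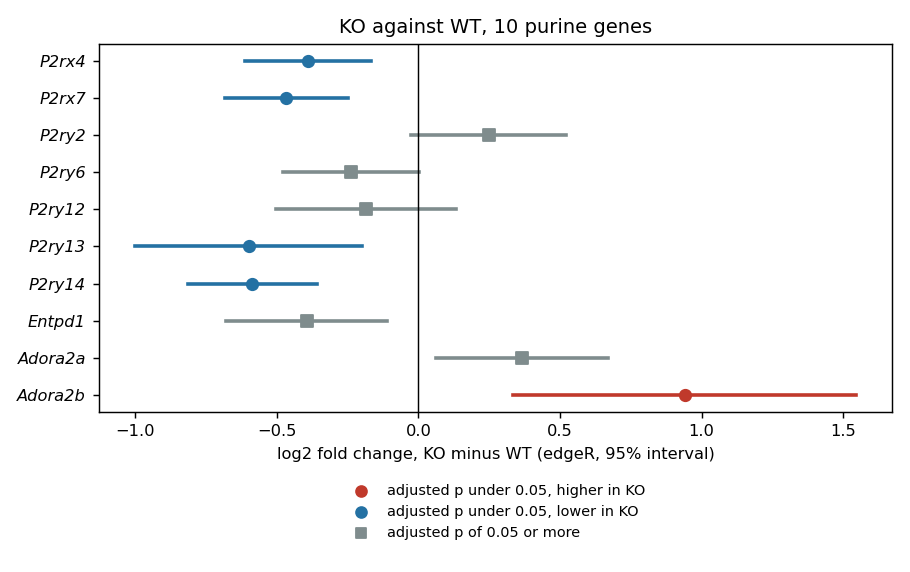
Log2 fold change, KO minus WT, of the 10 genes (horizontal axis) from edgeR with 95% intervals, coloured by call. P2rx4, P2rx7, P2ry13 and P2ry14 lie below 0 and Adora2b above it. The intervals of Entpd1 and Adora2a exclude 0, but these genes miss the threshold after adjustment over all genes.

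Both ATP-gated channels fell in KO. P2rx7, the channel linked to potassium loss and the NLRP3 inflammasome, had 14.2, 12.1 and 13.6 FPKM in KO libraries, against 18.2, 17.1 and 18.9 FPKM in WT libraries. Every KO library was below every WT library. Its log2 fold change was -0.47 ± 0.099 SE (edgeR adjusted p = 0.00904), a KO level 0.724 times that of WT with a 95% interval of 0.622 to 0.842. P2rx4, the more abundant channel, had 186, 200 and 169 FPKM in KO libraries, against 245, 242 and 230 FPKM in WT libraries. The groups did not overlap here either, and the log2 fold change was -0.39 ± 0.10 SE (edgeR adjusted p = 0.0246). The call of P2rx4 was lost without KO replicate 1, KO replicate 3, WT replicate 1 or WT replicate 2 (adjusted p = 0.0981, 0.122, 0.0995 and 0.0694), with log2 fold changes of -0.47 to -0.31 over the 6 libraries left out. Both genes lie on chromosome 5 on the forward strand, P2rx7 at 122643927 to 122692336 and P2rx4 at 122707518 to 122729739, 15181 bases apart. Since the channels fell together, their balance within a library was also examined. The ratio of P2rx7 to P2rx4 FPKM was 0.0725 ± 0.0105 in KO and 0.0758 ± 0.00589 in WT (SD, n = 3 each; two-sided exact permutation p = 0.8, adjusted p = 0.9 over 5 ratios). With 3 libraries against 3 the exact permutation test cannot go below p = 0.1. The 3' end of P2rx4 overlaps the span of Camkk2, a kinase gene on the opposite strand, but their annotated exons share 0 bases, and Camkk2 was not called (log2 fold change -0.03, adjusted p = 0.869). P2rx4 shares 3.98% and P2rx7 1.88% of their 32-base words with transcripts of other genes on the same strand (3.96% and 0.32% on the opposite strand), and exons of P2rx7 contain Mir8115, which was not analysed here.

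The Gq-coupled receptors for uridine nucleotides and ATP were not called. P2ry6, the UDP receptor and second most abundant gene of the 10, had 124, 108 and 128 FPKM in KO libraries, against 136, 126 and 156 FPKM in WT libraries. KO replicate 3 lay above WT replicate 2, so the groups overlapped. The log2 fold change was -0.24 with a 95% interval of -0.48 to 0.00163 (edgeR adjusted p = 0.18). P2ry2, the ATP and UTP receptor, had 11, 9.25 and 11.3 FPKM in KO libraries, against 7.78, 8.36 and 9.91 FPKM in WT libraries. WT replicate 3 lay above KO replicate 2, and the log2 fold change was 0.25 with a 95% interval of -0.03 to 0.52 (edgeR adjusted p = 0.223). Without KO replicate 2 and WT replicate 3, P2ry2 was called as higher in KO (log2 fold change 0.42, adjusted p = 0.00884). In that subset the KO libraries (12.6 and 10.4) and WT libraries (-8.21 and -12.4) lie apart on component 2, so genotype and that component cannot be told apart there. The genes are neighbours on the reverse strand of chromosome 7, P2ry6 at 100937630 to 100975498 and P2ry2 at 100996568 to 101012053.

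Of the Gi-coupled receptors, P2ry14 and P2ry13 fell in KO. P2ry14, the receptor for UDP-glucose, had 9.18, 9.31 and 9.80 FPKM in KO libraries, against 14.6, 14.2 and 13 FPKM in WT libraries. The groups were well separated. The log2 fold change was -0.59 ± 0.10 SE (edgeR adjusted p = 0.00315), and 0.666 times the WT level remained in KO, with a 95% interval of 0.569 to 0.779. P2ry13, an ADP receptor, had 7.30, 9.39 and 5.98 FPKM in KO libraries, against 11.4, 13.5 and 9.13 FPKM in WT libraries. KO replicate 2 exceeded WT replicate 3, the pair of libraries that stood apart on component 2. Its log2 fold change of -0.60 ± 0.18 SE was called only just (edgeR adjusted p = 0.0491). The call was lost under 12 of 19 alternatives, among them leaving out KO replicate 1, KO replicate 3, WT replicate 1 or WT replicate 2 (adjusted p = 0.153, 0.194, 0.119 and 0.197). Without both libraries that stood apart the log2 fold change was -0.95 (adjusted p = 7.46e-05), in the subset whose groups also differ on that component. P2ry12, the other ADP receptor and a target of antiplatelet drugs, had 3.44, 4.02 and 4.82 FPKM in KO libraries, against 4.39, 4.63 and 4.71 FPKM in WT libraries. KO replicate 3 was the highest of the 6, and the log2 fold change was -0.18 with a 95% interval of -0.50 to 0.13 (edgeR adjusted p = 0.454). The difference between the ADP receptors was examined as a ratio within each library. P2ry13 to P2ry12 stood at 1.90 ± 0.582 in KO and 2.48 ± 0.495 in WT (SD, n = 3 each; two-sided exact permutation p = 0.3, adjusted p = 0.667), and the groups overlapped. Since this permutation test cannot go below p = 0.1 with 3 libraries against 3, it cannot decide whether the pair changed unequally. The ratio of P2ry14 to P2ry6, both receptors for UDP or its sugar, was 0.0788 ± 0.00643 in KO and 0.101 ± 0.0154 in WT (SD, n = 3 each; two-sided exact permutation p = 0.2, adjusted p = 0.667).

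P2ry14, P2ry13 and P2ry12 form a cluster on the reverse strand of chromosome 3 (59114623 to 59153492, 59207892 to 59210882 and 59216271 to 59262985), within the span of Med12l, a Mediator subunit gene on the forward strand. The strand setting of the authors' counting is not given in the sources used here, so reads of Med12l and of these receptors cannot be told apart wherever exons overlap. The annotated exons of P2ry12 share 9 bases with those of Med12l, and the exons of P2ry13 and P2ry14 were not compared with them. P2ry13 shares 0% of its 32-base words with transcripts of other genes, and P2ry14 shares 0.126% on each strand. Med12l itself averaged 1.67 ± 0.542 CPM in KO and 2.74 ± 0.208 CPM in WT (SD, n = 3 each), with a log2 fold change of -0.75 (edgeR adjusted p = 0.0966).

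Entpd1, the enzyme that removes ATP and ADP at the cell surface, had 7.43, 6.41 and 6.59 FPKM in KO libraries, against 7.90, 10.6 and 7.96 FPKM in WT libraries. All KO libraries lay below all WT libraries, but KO replicate 1 came close to WT replicate 1, and WT replicate 2 was far above the rest. The log2 fold change was -0.39 ± 0.13 SE and was not called (edgeR adjusted p = 0.0638). It was called with DESeq2 (adjusted p = 0.0452), without WT replicate 3 (0.0431) and without both libraries that stood apart (0.0178). Without WT replicate 2 it was -0.23 (adjusted p = 0.266). Relative to the summed P2X receptors, whose ligand the enzyme removes, Entpd1 stood at 0.0342 ± 0.0037 in KO and 0.0339 ± 0.00567 in WT FPKM units (SD, n = 3 each; two-sided exact permutation p = 0.9, adjusted p = 0.9). Most of that sum was P2rx4, with means of 185 FPKM in KO and 239 FPKM in WT, against 13.3 and 18.1 FPKM for P2rx7. The ratio thus mainly sets Entpd1 against P2rx4.

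Of the adenosine receptors, Adora2b rose in KO and Adora2a was not called. Adora2b, the low-affinity adenosine receptor, had 2.17, 2.65 and 1.89 FPKM in KO libraries, against 0.922, 1.66 and 0.875 FPKM in WT libraries. Every KO library exceeded every WT library, with WT replicate 2 nearest to the KO range. Counts behind these values were low, at 141, 182 and 114 in KO and 59, 121 and 66 in WT. The log2 fold change was 0.94 ± 0.28 SE (edgeR adjusted p = 0.0415), 1.92 times the WT level with a 95% interval of 1.26 to 2.92. The call was lost on leaving out any 1 library other than WT replicate 2, in the order KO replicate 1, 2 and 3 then WT replicate 1 and 3 (adjusted p = 0.0842, 0.113, 0.0634, 0.135 and 0.0865). Without both libraries that stood apart the log2 fold change was 0.61 (adjusted p = 0.159), and on the log2(FPKM + 1) scale, which understates changes of low genes, it was 0.60. Adora2a, the high-affinity receptor, had 8.39, 8.28 and 7.27 FPKM in KO libraries, against 7.0, 5.12 and 6.19 FPKM in WT libraries. The groups did not overlap. The log2 fold change was 0.37 ± 0.14 SE and was not called (edgeR adjusted p = 0.106; 95% interval 0.06 to 0.67). The ratio of Adora2a to Adora2b was 3.61 ± 0.421 in KO and 5.92 ± 2.46 in WT (SD, n = 3 each; two-sided exact permutation p = 0.4, adjusted p = 0.667), and WT replicate 2, at 3.09, lay below all the KO libraries. Adora2a is at 75316877 to 75334792 on chromosome 10 and Adora2b at 62248984 to 62266452 on chromosome 11. Neither overlaps another annotated gene, and neither shares a 32-base word with other transcripts. In these same libraries the fibroblast and stroma markers were higher in KO, as given above, and their part in the adenosine receptor values was not tested.

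**Figure D3:**
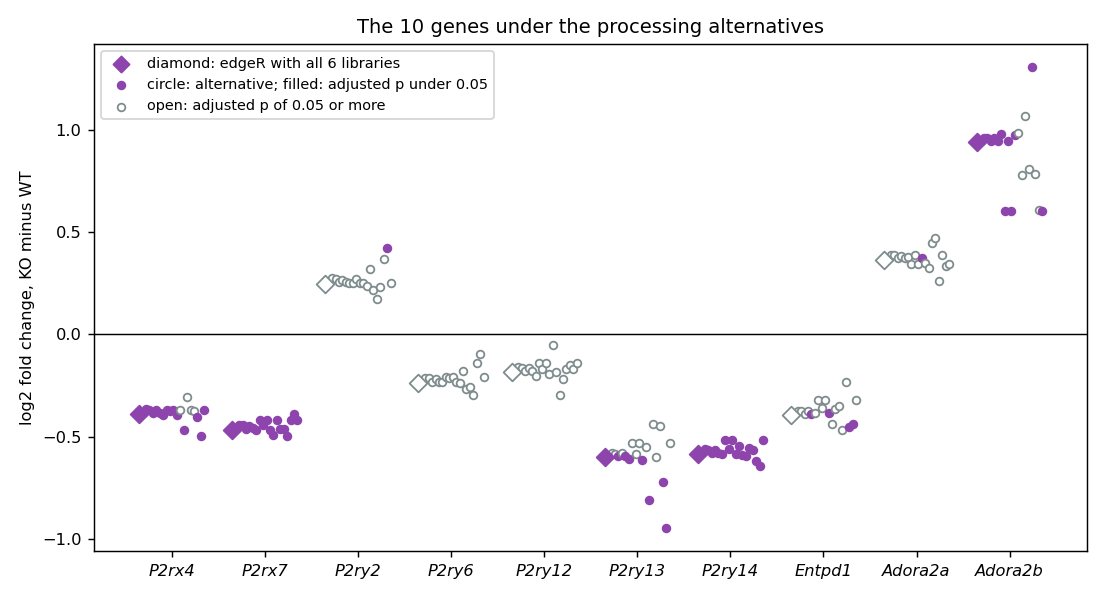
Log2 fold change, KO minus WT (vertical axis), of the 10 genes under edgeR with all 6 libraries (diamonds) and under 19 processing alternatives (circles), filled where the adjusted p was under 0.05. No gene changes sign. P2rx7 and P2ry14 are filled throughout, P2rx4, P2ry13 and Adora2b are mixed, and P2ry6 and P2ry12 are open throughout. Entpd1, P2ry2 and Adora2a are open with all 6 libraries and filled under 4, 1 and 1 of the alternatives.

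The other genes of purinergic signalling were read from lists that hold 98 genes, of which 94 were in the table and 77 were tested. Of these 77, 13 rose and 7 fell, or 26.0% called, against 14.6% of all genes. The lists were chosen with earlier results of these data known, so the difference between these shares is not a test of purinergic genes. The largest share of changes was in the list of enzymes that consume nucleotides, where 4 of 9 tested genes rose and 1 fell (median log2 fold change 0.10). Over all tested genes, 8.44% rose and 6.21% fell. Bst1, a surface enzyme that acts on NAD, had 83.1 ± 3.51 FPKM in KO and 33.3 ± 2.97 FPKM in WT (SD, n = 3 each), with edgeR placing KO 1.30 ± 0.11 SE higher on the log2 scale (adjusted p = 1.53e-05). Its relative Cd38, the other NAD-consuming surface enzyme, rose less, with 129 ± 6.57 FPKM in KO and 97.9 ± 2.25 FPKM in WT and a log2 fold change of 0.38 (adjusted p = 0.0201). Nt5e (CD73), the step after CD39 that makes adenosine from AMP, had 0.925 ± 0.233 FPKM in KO and 0.412 ± 0.141 FPKM in WT, or 1.13 ± 0.30 SE higher on the log2 scale (adjusted p = 0.0283). Acpp, a phosphatase that can also dephosphorylate AMP, had 1.25 ± 0.213 FPKM in KO and 0.352 ± 0.145 FPKM in WT (1.81, adjusted p = 9.37e-04). Enpp1, which splits ATP into AMP and pyrophosphate, fell to 1.56 ± 0.332 FPKM in KO, against 2.68 ± 0.318 FPKM in WT (-0.81, adjusted p = 0.00846). On the log2(FPKM + 1) scale the smallest log2 fold changes were 0.45 for Nt5e and 0.74 for Acpp. The alkaline phosphatase Alpl and the ectonucleotidases Entpd2 and Entpd3 were below the count filter.

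Among the remaining P2X, P2Y and adenosine receptors, 4 of 8 genes in the table were tested, and all 4 had log2 fold changes below 0. Their median was -0.52, against -0.01 over all tested genes. Only P2rx1 was called, where 6.21% of all tested genes fell and 8.44% rose. P2rx1, an ATP-gated channel of platelets and neutrophils, fell to 1.57 ± 0.161 FPKM in KO, against 2.51 ± 0.374 FPKM in WT (SD, n = 3 each; log2 fold change -0.70, edgeR adjusted p = 0.02). In the same libraries the neutrophil precursor markers Mpo (-0.99) and Elane (-0.93) and the platelet marker Ppbp (-0.58) fell, the neutrophil markers S100a8 (0.75) and S100a9 (0.49) and the platelet marker Pf4 (0.51) rose, and the part of such cells in the P2rx1 value was not tested. The other 3, P2rx6, P2ry1 and Adora3, were not called, and P2rx2, P2rx3, P2rx5 and Adora1 were below the count filter. Of channels and transporters that can release nucleotides, 2 of 10 tested genes rose and 2 fell (median 0.11), against the same background. Gja1 (connexin 43), which forms hemichannels permeable to ATP, had 6.03 ± 0.605 FPKM in KO and 1.89 ± 0.831 FPKM in WT (1.66, adjusted p = 0.00102), and Abcc4, an exporter of cyclic nucleotides, had a log2 fold change of 0.56 (adjusted p = 0.0218). Calhm6 fell to 25.6 ± 2.11 FPKM in KO, against 48.8 ± 6.5 FPKM in WT (-0.95, adjusted p = 3.37e-04), and Lrrc8c, a subunit of volume-regulated anion channels, also fell (-0.51, adjusted p = 0.02). Gja1 and Nt5e are also expressed by stromal cells, whose markers were higher in the same KO libraries (342 to 416 CPM against 160 to 195 CPM in WT), and the part of such cells was not tested. Of genes of adenosine uptake and breakdown, 1 of 9 rose and none fell (median 0.03), near the background of 8.44% higher over all tested genes. This was the nucleoside phosphorylase Pnp (0.61, adjusted p = 0.0134), 22.6% of whose 32-base words also occur in transcripts of other genes, chiefly its copy Pnp2, so its value is uncertain.

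Downstream of the receptors, 4 of 29 tested G protein and effector genes rose and 1 fell (median -0.05), near the background of 8.44% higher and 6.21% lower over all tested genes. The Gq-class subunits Gna15 (0.55, edgeR adjusted p = 0.0126) and Gna11 (0.48, adjusted p = 0.0324), the Gi subunit Gnai1 (2.01, adjusted p = 0.0213) and the adenylyl cyclase Adcy6 (0.69, adjusted p = 0.0277) rose, while the phospholipase Plcb2 fell (-0.41, adjusted p = 0.0406). Gnai1 was scarce, at 0.335 ± 0.108 FPKM in KO and 0.0798 ± 0.05 FPKM in WT (SD, n = 3 each), and its log2 fold change was 0.30 on the log2(FPKM + 1) scale. On the route between P2X7 and the inflammasome, 2 of 16 genes rose and 2 fell (median -0.06), against the same background. The calcium-activated potassium channel Kcnn4 (0.91, adjusted p = 0.00119) and the adaptor Pycard (0.61, adjusted p = 0.00433) rose, and Txnip (-0.57, adjusted p = 0.005) and Nlrp3 (-0.31, adjusted p = 0.0498) fell. The call of Nlrp3 did not hold in 15 of 19 alternatives, nor without any 1 of the 6 libraries (adjusted p of up to 0.184). Transcripts of other genes on the opposite strand share 17.3% of the words of Txnip, 12.6% of Pycard and 8.19% of Adcy6, so these values are uncertain where strand was not used in counting. Of the 20 genes called in these lists, 10 kept their call under every alternative that could be run for them: Bst1, Acpp, Enpp1, Calhm6, Gja1, Pnp, Gna15, Kcnn4, Pycard and Txnip. The other 10 lost it on leaving out 1 library or more. The highest adjusted p over the libraries left out was 0.119 for Nt5e, 0.0742 for Cd38, 0.0953 for P2rx1, 0.0693 for Abcc4, 0.0644 for Lrrc8c, 0.12 for Gna11, 0.0852 for Gnai1, 0.106 for Adcy6 and 0.111 for Plcb2, besides Nlrp3.

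**Figure D4:**
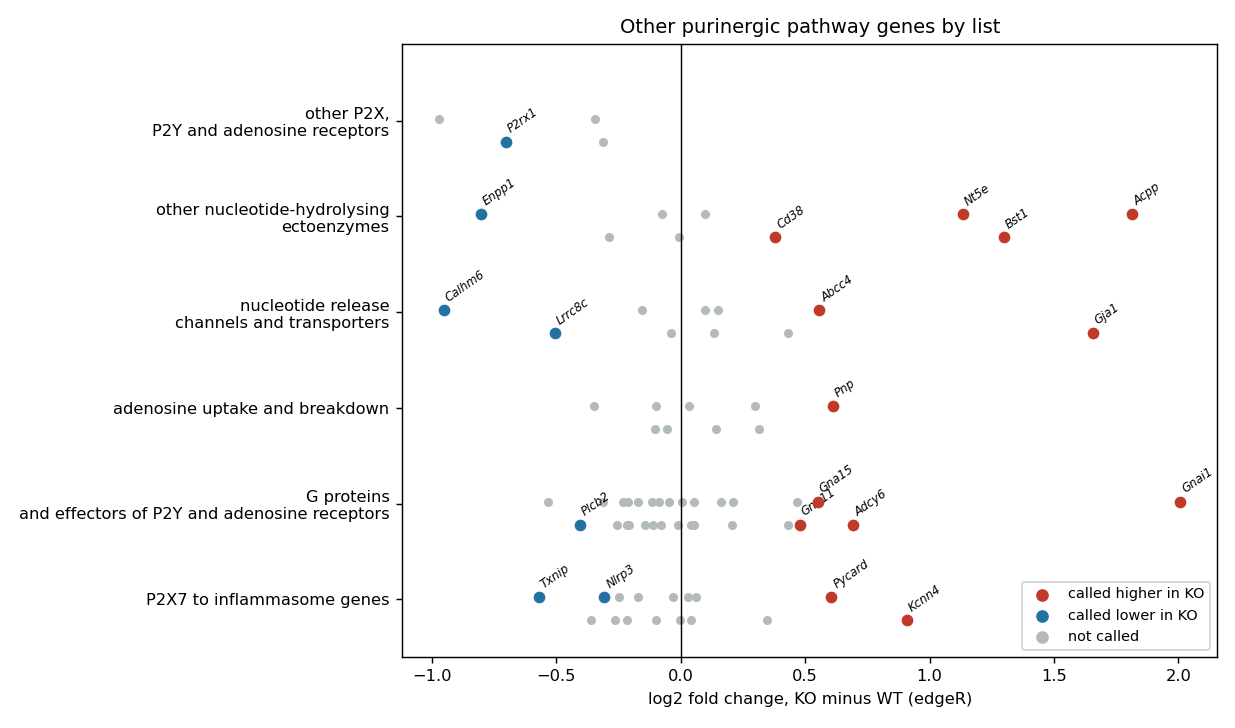
Log2 fold change, KO minus WT (horizontal axis, edgeR), of the 77 tested genes in 6 lists of purinergic pathway genes, one point per gene with called genes named. The enzymes that consume nucleotides hold 4 of the 13 rises, led by Acpp at 1.81, and the other receptors lie below 0.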

How the data were processed

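Per the labels' protocols, strand-specific libraries were prepared from total RNA of LPS-treated mouse bone marrow-derived macrophages. The authors deposited read counts per gene and FPKM values, both for 16266 genes. Tools named in the submitters' processing notes are fastp, HISAT2 and HTSeq, with mm10 as the build. Their versions, and whether counting used strand, were not found in the labels. Sample titles gave the groups and replicate numbers.

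Differences in counts were tested with edgeR 4.0.16 (R 4.3.3), after filterByExpr and TMM scaling, by the quasi-likelihood F test. Benjamini-Hochberg adjustment ran over 12219 genes, with calls at adjusted p under 0.05. SE is the log2 fold change over the square root of F. The procedure was tested on simulated data. FPKM in the text is the authors' deposited value, which departs from the counts in 4 values of 2 genes, none of them among the 10, and CPM divides counts by column totals. Nlrp3 is given from counts. FPKM ratios within libraries were tested by exact permutation. Alternatives comprised other scalings and filters, limma 3.58.1, DESeq2 1.42.0, a replicate block and leaving out libraries. Positions and promoters came from RefSeq on GRCm38.p6, exons and transcripts from GENCODE.

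The 10 genes and all lists were chosen with earlier results of these data known. Named are all 10, every called gene of the other lists, and genes that overlap the 10 or lie between them, 1 of which is not reported here. Precision rises with depth: Adora2b rests on 59 to 182 counts per library, P2rx4 on 15014 to 26130.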

Additional observations from a re-analysis of the deposited data

How the results depend on the processing

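The signs of all 10 genes were the same under the 19 alternatives. The count of genes called, 1790 with all libraries, was 1119 to 1741 on leaving out 1 library and 3186 without both libraries that stood apart. Calls among the 10 genes on leaving out 1 library were 2 to 5 lower and 0 to 1 higher. Across the scaling, filter, DESeq2, limma-voom and limma-trend settings 3 to 5 were called lower and 1 higher. The log2 difference in the P2rx7 to P2rx4 ratio, -0.07, was -0.15 to 0.052 on leaving out 1 library, and that of Entpd1 to P2X receptors, 0.02, was -0.072 to 0.15. Camkk2 (-0.03) was -0.061 to 0.021 on leaving out 1 library and 0.047 without both libraries that stood apart, and the cause of these sign changes was not tested. Same-numbered KO and WT libraries had deviations that correlated at -0.0975, 0.23 and 0.18, so the numbers were not taken as pairs. With the replicate number as a block, edgeR called 2526 genes (11.1% higher, 9.53% lower), 2 of the 10 higher (Adora2a added) and 5 lower (Entpd1 added). Limma-trend with FPKM recomputed from counts was added after the data were seen. Of the 413 values of 22 other named genes, 347 kept direction and side of the threshold, 63 lost the call and 3 changed sign. A single comparison of 3 with 3 libraries and low counts limit what can be seen for Adora2b.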

Other observations

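In 97592 of 97596 values, the deposited FPKM equalled the count divided by the total of its column and by 1 whole-number length for each gene, within a relative tolerance of 1e-06. This held for all values of the 10 purine genes. The 4 exceptions lay in 2 genes, Nlrp3 and Atp5a1 (an ATP synthase subunit gene singled out after its values were seen). Each exception differed from the value computed from its count by a whole number of FPKM. For Nlrp3 in KO replicate 2 the deposited value was 13 FPKM and the count of 2734 gave 18 FPKM, a difference of -5. For Atp5a1 the deposited value was 399 FPKM in KO replicate 3 where the count gave 339 FPKM (a difference of 60), 306 FPKM in WT replicate 1 where the count gave 376 FPKM (-70), and 316 FPKM in WT replicate 2 where the count gave 366 FPKM (-50). The deposited FPKM of these 4 values would need 1975.55, 31629.54, 25857.69 and 30417.96 counts in that order, none of them whole.

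All 4 departures widened the difference between the KO and WT means, and they changed 1 call. Deposited FPKM of Nlrp3 averaged 16.6 ± 3.10 in KO and 22.2 ± 0.877 in WT (SD, n = 3 each), and FPKM from counts averaged 18.2 ± 0.472 in KO with the same WT values. On the log2(FPKM + 1) scale in limma-trend its log2 fold change was -0.42 as deposited (adjusted p = 0.0742) and -0.27 from counts (adjusted p = 0.0514). Deposited FPKM of Atp5a1 averaged 405 ± 23.0 in KO and 318 ± 13.3 in WT, and FPKM from counts averaged 385 ± 46.2 in KO and 358 ± 22.8 in WT (SD, n = 3 each). Its limma-trend log2 fold change was 0.35 as deposited (adjusted p = 0.0242) and 0.10 from counts (adjusted p = 0.597), and edgeR on the counts gave 0.09 (adjusted p = 0.681). The origin of these departures was not tested.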
